A study of Mus musculus with 16 samples.

Results

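The 35 genes of the mouse mitochondrial genome listed in the liver tables were followed across fasting, refeeding and loss of Cpt1a. They were taken as every gene the deposited tables place on chromosome MT, out of 25803 genes joined from 4 tables. They comprised 13 protein genes, 2 ribosomal RNA genes and 20 transfer RNA genes. The transfer RNA genes mt-Tf and mt-Td are not analysed here. All animals were male mice fed a high-fat diet (HFD) for 12 weeks. Control livers and CPT1a LKO livers were each collected after a 16 h fast or after a 16 h fast and 6 h of refeeding, giving 4 libraries in each of 4 groups. Cpt1a encodes carnitine palmitoyltransferase 1A, which admits long-chain fatty acids to mitochondria. How the knockout was produced, and in which liver cells, is not given in the sources used here.

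The circular mitochondrial genome is transcribed from both strands as long precursors that cover nearly its whole length. Transfer RNAs punctuate these precursors and are cut out by dedicated enzymes, which frees the ribosomal RNAs and the messenger RNAs between them. The messenger RNAs encode core subunits of respiratory complexes I, III, IV and V, and their levels also depend on polyadenylation and on RNA-binding proteins inside the organelle. Hepatocytes are rich in mitochondria, and their respiratory chain takes up the electrons released by fat oxidation during fasting.

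Libraries held 14721601 to 24618230 counted reads. The library selection used poly-T beads, so a count reports polyadenylated or A-rich RNA of a gene. A transfer RNA count is not a measure of mature transfer RNA, nor a ribosomal RNA count a measure of all ribosomal RNA. Cpt1a itself fell in LKO livers by 2.28 on the log2 scale after fasting and by 3.08 after refeeding (quasi-likelihood test of edgeR, Benjamini-Hochberg adjusted p = 0.000138 and 8.23e-06). All 8 hepatocyte markers were detected, and 0 of 5 muscle and kidney markers passed the filter on low counts. Summed hepatocyte marker levels were 65345 to 75667 CPM (counts scaled to a common library size) in fasted LKO and 79660 to 88819 in fasted control livers. Of these 8, Ttr and Serpina1c were called lower in fasted LKO (adjusted p under 0.05). Among all genes tested, 6.48% were called lower and 5.75% higher in that comparison. After refeeding the sums were 69000 to 80395 CPM in LKO and 77734 to 96193 in control livers, with 0 of 8 called. B and plasma cell markers summed to 13.1 to 33.7 CPM in fasted LKO against 3.98 to 7.94 in fasted control livers. After refeeding they summed to 17.0 to 38.9 CPM in LKO against 4.18 to 6.69 in control livers. Of 4 tested, Jchain was called higher in LKO livers in both states. Between the refed genotypes 2.28% of all genes tested were called higher. Adipocyte markers summed to 153 to 355 CPM in fasted LKO against 46.6 to 132 in fasted control livers. Only 2 of the 5 passed the low-count filter, and they went opposite ways: Cidec, a lipid droplet gene, was called higher and Cfd lower. Long RNAs retained in the nucleus summed to 555 to 931 CPM in fasted LKO against 354 to 452 in fasted control livers. Of these 4 RNAs, Meg3 and Neat1 were called higher. Red blood cell markers summed to 300.3 to 520 CPM in fasted LKO against 383 to 1264 in fasted control livers, and of 5 Alas2 was called lower. The part of these shifts in the genotype differences below was not tested. Bulk tissue cannot tell fewer cells of a type from less RNA per cell.

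Genes along a stretch of the mitochondrial genome have near-identical copies on chromosome 1, and this bears on their counts. The deposited annotation lists 7 pseudogenes there, all on the minus strand, from 24650616 to 24655278. Matched by windows of 100 bases, their outermost matches lay at mitochondrial positions 6394 and 11042. This span of 4649 bases, from the end of mt-Co1 through most of mt-Nd4, is called the copied block. Only annotated transcripts were searched, and mt-Atp8 shared 0 of its 105 windows with a nuclear one. No pseudogene is annotated between Gm10925, the copy of mt-Atp6, which ends at 24653732, and Gm28661, the copy of mt-Co2, which starts at 24653966. The mitochondrial matches of these 2 copies begin at 7927 and end at 7693. A copy of mt-Atp8 between them was therefore not tested. Transfer RNAs are too short for such a window, so a copy of those in the block was not tested. The copies of mt-Co2, mt-Atp6, mt-Co3, mt-Nd4l and mt-Nd4 had 0 mismatches over the aligned bases. The copy of mt-Nd3 had 1, the substitution T3C (gene base first, position counted from the gene's 5′ end). The copy of mt-Co1 had 6, namely T1056A, C1057T, A1059G, A1060G, C1062A and A1066T, all at the start of the pseudogene. The stretches below show the edge of the copied block in mt-Co1 (bases 1041 to 1120, MT positions 6368 to 6447) and the first 60 bases of mt-Nd3 and of mt-Co3, each beside its copy. Capitals mark bases that differ between a gene and its copy. They come from the GENCODE M21 transcripts (GRCm38), in which all 35 genes had the deposited position and strand.
mt-Co1: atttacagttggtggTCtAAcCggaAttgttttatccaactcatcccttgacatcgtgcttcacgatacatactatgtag
Gm29216: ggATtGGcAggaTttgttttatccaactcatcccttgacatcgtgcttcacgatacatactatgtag
mt-Nd3: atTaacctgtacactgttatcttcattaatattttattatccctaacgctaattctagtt
Gm28438: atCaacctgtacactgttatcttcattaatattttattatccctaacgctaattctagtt
mt-Co3: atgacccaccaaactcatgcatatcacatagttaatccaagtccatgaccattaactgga
Gm28437: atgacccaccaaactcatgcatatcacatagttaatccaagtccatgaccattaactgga

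Transfer RNAs sit between the genes of that block. Those whose counts passed a test below are shown with the anticodon, the triplet that reads the codon, in capitals. Of these, mt-Tg (glycine, MT 9391 to 9458) and mt-Tr (arginine, MT 9808 to 9875) lie inside the block, while mt-Tl2 (leucine, MT 11671 to 11741) and mt-Tp (proline, MT 15356 to 15422, minus strand) lie outside it.
mt-Tg: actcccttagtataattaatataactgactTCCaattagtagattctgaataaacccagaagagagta
mt-Tr: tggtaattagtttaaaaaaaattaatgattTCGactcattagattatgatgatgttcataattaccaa
mt-Tl2: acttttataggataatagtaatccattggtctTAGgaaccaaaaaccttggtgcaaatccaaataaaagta
mt-Tp: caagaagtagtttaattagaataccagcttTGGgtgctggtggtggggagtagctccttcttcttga

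Messenger RNAs made up nearly all mitochondrial counts. Their share of the raw library total overlapped in each comparison except, by a narrow gap, that of control livers before and after refeeding. The 13 protein genes held 5.03, 5.26, 5.96 and 5.90% of library counts in libraries S40 to S43 from fasted controls. Fasted LKO libraries S44 to S47 held 4.72, 6.28, 6.55 and 6.93%, so S44 was the lowest of all 16 and the other 3 lay above every fasted control. Refed control libraries S48 to S51 held 5.98, 6.53, 6.01 and 6.34%, and refed LKO libraries S52 to S55 held 6.68, 6.57, 6.39 and 6.38%. The group means were 5.54 ± 0.465%, 6.12 ± 0.969%, 6.22 ± 0.267% and 6.51 ± 0.146% (SD, n = 4 each). Refed controls lay above fasted controls by 0.679 percentage points, with the lowest refed value just over the highest fasted value. In CPM, mt-Co1, the messenger RNA with most counts, overlapped between these groups (15766 to 21428 fasted, 18636 to 21907 refed). Only mt-Nd5 of the 29 tested mitochondrial genes was higher after control refeeding without overlap in CPM. The fasted LKO mean exceeded the fasted control mean by 0.579 points, and by 1.04 points without S44. The refed LKO mean was 0.388 points above the fasted LKO mean with S44, and the difference was −0.0776 points without it, so that difference rested on 1 library.

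Ribosomal RNA counts were highest after fasting in controls and lower in both refed groups. Together mt-Rnr1 and mt-Rnr2 held 0.0875, 0.123, 0.114 and 0.109% of library counts in fasted control livers, and 0.0983, 0.0732, 0.0769 and 0.0920% in fasted LKO livers. Refed control livers held 0.0610, 0.0486, 0.0809 and 0.0629%, and refed LKO livers 0.0583, 0.0475, 0.0659 and 0.0734%. The highest refed control value was below the lowest fasted control value, while the highest refed LKO value was just above the lowest fasted LKO value. Set against the messenger RNAs, ribosomal RNA counts per 100 protein-gene counts averaged 1.96 ± 0.264 for controls and 1.44 ± 0.436 for LKO livers after fasting. After refeeding they averaged 1.03 ± 0.246 for controls and 0.944 ± 0.187 for LKO livers. The 20 transfer RNA genes held 0.0164 ± 0.00219%, 0.0141 ± 0.00177%, 0.0158 ± 0.00251% and 0.0166 ± 0.00130% in the same order, with overlapping groups. The 95% Wilson interval of a library's share was at most ± 0.0126 points for protein genes, ± 0.00163 for ribosomal RNA and ± 0.000670 for transfer RNA genes, which covers counting error only.

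**Figure D1:**
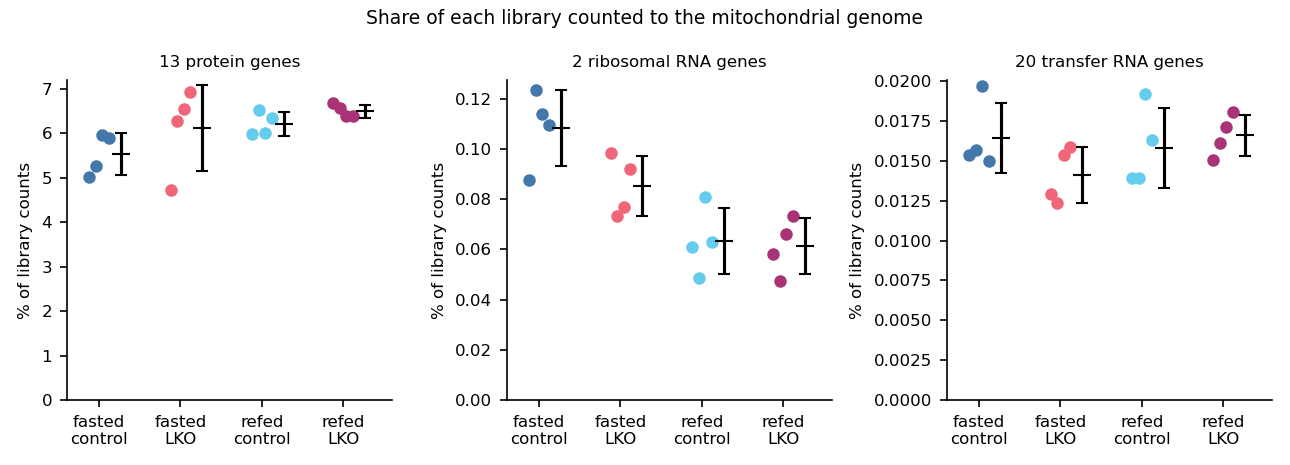
Share of each library's counts (%, vertical axes from 0) held by the protein, ribosomal RNA and transfer RNA genes of the mitochondrial genome, by group (horizontal axes). Points are libraries and the black marks are the mean and SD of 4. Protein-gene shares lie between 4.72 and 6.93%, and ribosomal RNA shares are highest in fasted control livers.

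Among the messenger RNAs, a few genes outside or partly outside the copied block took almost every count. mt-Co1, the catalytic core of complex IV, held 32.2 ± 1.08% of mitochondrial protein-gene counts over the 16 libraries and ranked 3 among all genes by total count. mt-Cytb, the complex III subunit cytochrome b, held 20.6 ± 0.924% and ranked 5. Of the complex I subunits, mt-Nd2 held 14.2 ± 1.28%, mt-Nd1 11.6 ± 0.717%, mt-Nd4 11.2 ± 0.714%, mt-Nd5 5.22 ± 0.834% and mt-Nd6 3.18 ± 0.247%. Across libraries mt-Co1 ranged from 30.4 to 34.4% and mt-Cytb from 19.2 to 21.9%. The remaining 6 protein genes, all wholly inside the block, held 0.651% (mt-Atp6), 0.553% (mt-Co2), 0.516% (mt-Co3), 0.0555% (mt-Nd3), 0.0338% (mt-Nd4l) and 0.00292% (mt-Atp8).

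Per length the break at the block was steep. Mean levels were 12718 CPM per kb for mt-Co1, 10977 for mt-Cytb, 8288 for mt-Nd2, 7405 for mt-Nd1, 4991 for mt-Nd4, 3738 for mt-Nd6 and 1761 for mt-Nd5. Levels per kb inside the block were 586 for mt-Atp6, 487 for mt-Co2, 400 for mt-Co3, 98.8 for mt-Nd3, 68.7 for mt-Nd4l and 8.74 for mt-Atp8. mt-Co2 and mt-Co3 encode the other core subunits of complex IV, and mt-Atp6 and mt-Atp8 encode subunits of the ATP synthase, complex V. The highest mt-Atp6 value, 921 CPM per kb, was above only the lowest mt-Nd5 value, 845 CPM per kb. The ribosomal RNA genes, which are outside the block, stood at 382 (mt-Rnr1) and 274 (mt-Rnr2) CPM per kb. mt-Nd5 and mt-Nd6 lie on opposite strands and overlap from MT 13552 to 13565. The strand setting of the counting is not given in the sources used here. Over the whole of mt-Nd6, its reads therefore cannot be told apart from those of plus-strand RNA covering the same bases.

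**Figure D2:**
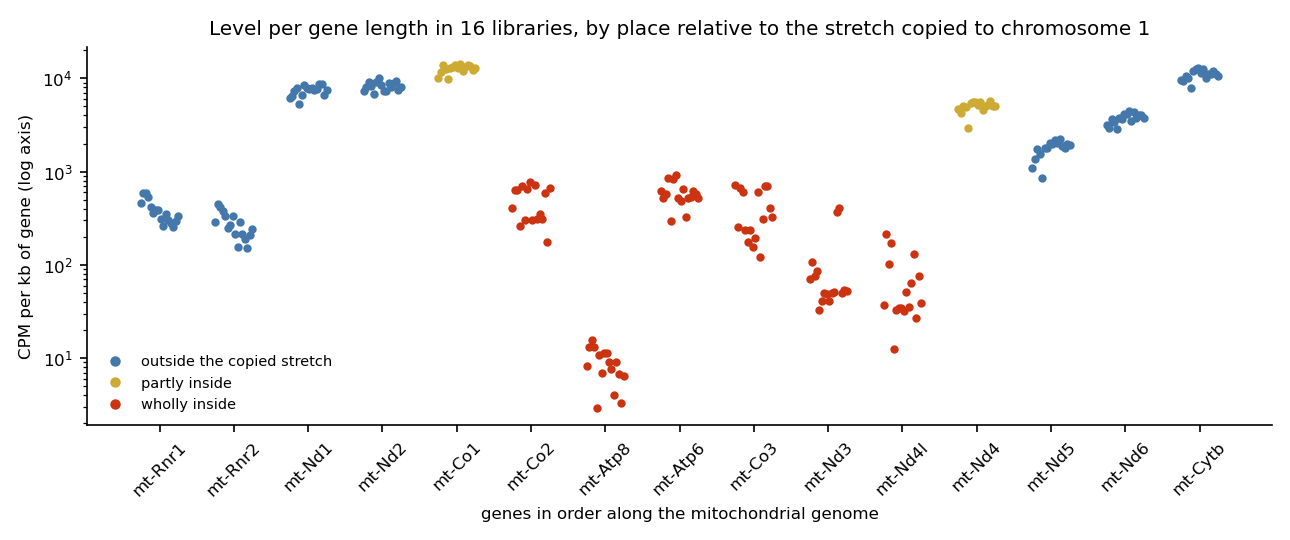
Level per gene length (CPM per kb, log axis) of the ribosomal RNA and protein genes in order along the mitochondrial genome, 1 point per library. Genes wholly inside the copied stretch (red) average 8.74 to 586 CPM per kb, protein genes outside it (blue) 1761 to 10977, and the 2 genes partly inside it (yellow) 4991 and 12718.

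The counts listed for a gene and for its nuclear copy stood in proportions that differed widely from library to library. For mt-Co3 the copy Gm28437 held 23.0 to 81.7% of the pair's counts. For mt-Nd4l the copy Gm10222 held 10.1 to 86.6%, and for mt-Nd3 the copy Gm28438 held 4.28 to 73.1%. The copies of mt-Co2 and mt-Atp6 held 21.9 to 58.6% and 20.4 to 42.7%. For mt-Co1 and mt-Nd4 the copies Gm29216 and Gm28439 held a median of 0.544 and 0.471% of the pair. Gm29216 shared 380 of the 1446 windows of mt-Co1, and Gm28439 shared 777 of the 1279 windows of mt-Nd4. Between libraries of control livers, Gm28661, the copy of mt-Co2, was called higher (0.72, SE 0.22) and Gm10925, the copy of mt-Atp6, lower (−0.80, SE 0.25) after refeeding. Of the 12 genes listed with these copies, 2 were called higher and 1 lower there, against 7.79% higher and 7.65% lower among all genes tested. Adding gene and copy together raised the mean level per kb of mt-Co2 to 744, of mt-Co3 to 763 and of mt-Nd4l to 109 CPM per kb, still below the mean of every protein gene outside the block. How reads that match several places were counted is not given in the sources used here. Such reads may be missing from both gene and copy. Neither these sums nor the tests below with copy counts added need recover the level of a gene. Levels of the genes inside the block are therefore uncertain.

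**Figure D3:**
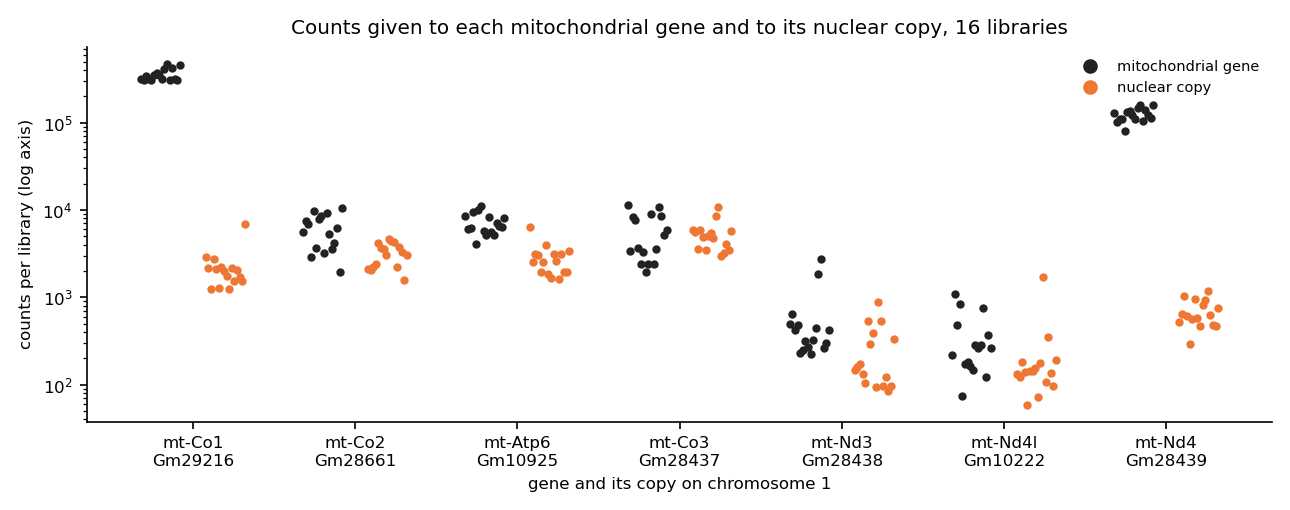
Counts per library (log axis) of 7 mitochondrial genes (black) and their copies on chromosome 1 (orange), 1 point per library. For mt-Co3, mt-Co2, mt-Atp6, mt-Nd3 and mt-Nd4l the clouds overlap, whereas the copies of mt-Co1 and mt-Nd4 hold medians of 0.544 and 0.471% of the pair.

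In fasted livers, LKO and control libraries differed in a few mitochondrial transcripts. The small ribosomal RNA mt-Rnr1 was lower in LKO livers, as were mt-Co3 and mt-Nd4l and the transfer RNAs beside them, mt-Tg and mt-Tr. Of 29 mitochondrial genes that passed the low-count filter, 5 were called lower and 0 higher, against 6.48% called lower, 5.75% called higher and 12.2% in either direction among the 14488 genes tested (edgeR adjusted p under 0.05). Their median log2 fold change was −0.33, beside 0.02 over all genes tested. The messenger RNAs that carry most counts were not among the calls, with log2 fold changes of 0.06 (SE 0.12) for mt-Co1, 0.18 (SE 0.13) for mt-Cytb, 0.08 (SE 0.12) for mt-Nd2, 0.02 (SE 0.14) for mt-Nd1 and 0.04 (SE 0.16) for mt-Nd4.

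mt-Rnr1 encodes the 12S RNA of the small mitochondrial ribosomal subunit (MT 70 to 1024) and shared no 100-base window with a nuclear transcript. It stood at 441, 558, 559 and 506 CPM in fasted control and at 398, 346, 367 and 370 CPM in fasted LKO livers. Every LKO library was below every control. Its log2 fold change was −0.48 (SE 0.11, edgeR adjusted p = 0.00840), and leaving out any of the 8 libraries kept the call. mt-Rnr2, the 16S RNA of the large subunit (MT 1094 to 2675), stood at 459, 718, 652 and 602 CPM in control and 530, 389, 426 and 524 CPM in LKO livers. Its groups overlapped through S40 and it did not pass (−0.38, SE 0.18, edgeR adjusted p = 0.198).

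The other 4 calls lay inside the copied block, between MT positions 8607 and 10173, where only mt-Nd3 among the tested genes was not called. mt-Co3, a core complex IV subunit (MT 8607 to 9390), stood at 560, 200, 521 and 473 CPM in control and 185, 137, 186 and 121 CPM in LKO livers. The LKO libraries were all lower, though S41 at 200 CPM came close to S46 at 186. Its log2 fold change was −1.48 (SE 0.42, edgeR adjusted p = 0.0287), and 7 of the 8 fits without 1 library lost the call (adjusted p up to 0.0760), all but that without S41. With the counts of Gm28437 added, the values were 856, 526, 745 and 838 against 430, 335, 466 and 462 CPM, again with no overlap, and the log2 fold change was −0.81 (SE 0.23, edgeR adjusted p = 0.0287). The copy held 30.1 to 62.0% of the pair in control and 57.0 to 73.8% in LKO livers.

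mt-Nd4l, a small membrane subunit of complex I (MT 9877 to 10173), stood at 11.0, 64.1, 30.6 and 51.3 CPM in control and at 3.69, 9.79, 10.3 and 10.1 CPM in LKO livers. The groups did not overlap, but the control library S40 at 11.0 CPM sat just above the LKO range. Its log2 fold change was −2.22 (SE 0.52, edgeR adjusted p = 0.0118). With the copy Gm10222 added, S40 at 17.6 CPM fell within the LKO range of 6.64 to 19.8 CPM, and the call was lost (−1.61, SE 0.54, edgeR adjusted p = 0.0603).

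The 2 transfer RNA calls rested on few reads. mt-Tg had 41, 53, 31 and 38 counts in control and 14, 8, 25 and 10 counts in LKO livers (log2 fold change −1.56, SE 0.30, edgeR adjusted p = 0.00331). mt-Tr had 13, 14, 23 and 24 counts in control and 2, 3, 4 and 3 counts in LKO livers (−2.65, SE 0.57, edgeR adjusted p = 0.00686). Neither pair of groups overlapped, and leaving out any of the 8 libraries kept both calls. No pseudogene is annotated for these transfer RNAs in the copied block, so no copy's counts could be added to theirs.

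The CPM ranges of the fasted groups did not overlap for 7 of the 29 genes, all lower in LKO, against 8.57% of all genes tested that were lower without overlap, 8.3% that were higher and 16.9% in either direction. Besides the 5 calls these were mt-Nd3, a complex I subunit, and mt-Tl2. mt-Nd3 stood at 24.8, 37.7, 26.7 and 30.02 CPM in control and 11.4, 14.2, 17.5 and 16.9 CPM in LKO livers (log2 fold change −0.99, SE 0.74, edgeR adjusted p = 0.425). Its spread came largely from the refed groups, where S51 and S52 stood at 127 and 141 CPM. With Gm28438 added, the mt-Nd3 difference was −0.18 (SE 0.58). mt-Tl2 stood at 4.67, 6.42, 5.18 and 4.82 CPM in control and 2.10, 2.77, 3.59 and 2.92 CPM in LKO livers (−0.89, SE 0.35, edgeR adjusted p = 0.109). In the authors' deposited table for this pair of groups, 7 mitochondrial genes had an adjusted p under 0.05, all lower in LKO: these 5 calls, mt-Nd3 and mt-Tl2.

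**Figure D4:**
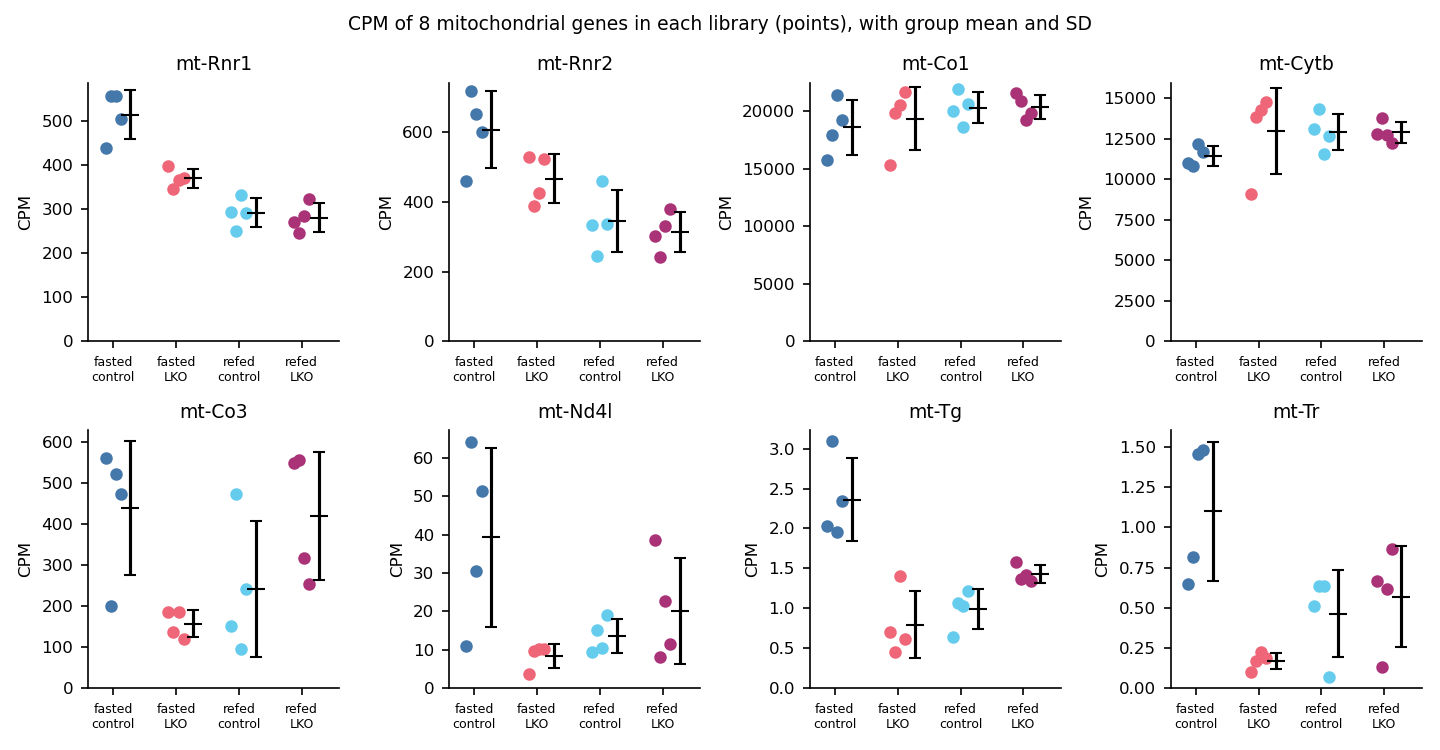
CPM (vertical axes from 0) of 8 mitochondrial genes by group (horizontal axes), with libraries as points and the mean and SD of 4 in black. mt-Rnr1, mt-Co3, mt-Nd4l, mt-Tg and mt-Tr are lower in every fasted LKO library than in any fasted control, while mt-Co1 and mt-Cytb overlap.

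After refeeding, no mitochondrial gene passed the edgeR threshold between the genotypes. With edgeR, 0 of 29 were called, against 3.63% of all genes tested (2.28% higher and 1.35% lower), and 1 (mt-Tl2) had an unadjusted p under 0.05. DESeq2 called 1 gene, mt-Tl2, and limma-voom 0. The median log2 fold change was 0.04 over the mitochondrial genes and −0.01 over all genes tested. mt-Rnr1 stood at 294, 252, 332 and 291 CPM in refed control and 271, 245, 285 and 323 CPM in refed LKO livers, a log2 difference of −0.06 (SE 0.11). mt-Tl2 stood at 1.98, 3.72, 3.42 and 0.543 CPM in control and 7.21, 4.06, 4.51 and 4.89 CPM in LKO livers, with no overlap (1.06, SE 0.35, edgeR adjusted p = 0.104). Of the other genes, mt-Tg was higher and mt-Nd5 lower in LKO without overlap, so 3 of 29 showed none, 2 higher and 1 lower, against 11.7% of all genes tested (6.7% higher and 5.03% lower).

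In control livers the counted RNA of both ribosomal RNA genes fell with refeeding. mt-Rnr1 went from 441 to 559 CPM over the fasted libraries to 252 to 332 CPM over the refed ones, with no overlap (log2 fold change −0.82, SE 0.11, edgeR adjusted p = 0.000367). mt-Rnr2 went from 459, 718, 652 and 602 CPM to 335, 245, 461 and 338 CPM (−0.82, SE 0.18, edgeR adjusted p = 0.00802). The ranges of mt-Rnr2 touched, with the refed library S50 at 461 CPM beside the fasted library S40 at 459. Both calls were kept in all 8 fits without 1 library. The ratio of mt-Rnr2 to mt-Rnr1 counts was 1.17 ± 0.102 in fasted and 1.17 ± 0.170 in refed control livers.

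mt-Tg and mt-Tl2 were the other calls in refed control livers. mt-Tg fell from the 1.96 to 3.09 CPM of the fasted libraries to 0.639, 1.06, 1.03 and 1.22 CPM (−1.24, SE 0.29, edgeR adjusted p = 0.00995). mt-Tl2 fell by 1.09 on the log2 scale (SE 0.35, edgeR adjusted p = 0.0462), but 5 of the 8 fits without 1 library lost the call, namely those without S40, S41, S42, S43 or S48 (adjusted p up to 0.113). In all, 4 of 29 genes were called lower and 0 higher, against 7.65% called lower, 7.79% called higher and 15.4% in either direction among all genes tested. The median log2 fold change was −0.46, beside 0.01 over all genes.

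The largest log2 fold changes of messenger RNAs outside the block in control refeeding were those of mt-Nd5 and mt-Nd6, and neither passed the adjusted threshold. mt-Nd5, a proton-pumping subunit of complex I, stood at 2017, 2506, 3193 and 2784 CPM in fasted and 3627, 3933, 3682 and 4110 CPM in refed control livers. The groups did not overlap, and the log2 fold change was 0.55 (SE 0.20, edgeR adjusted p = 0.0711). mt-Nd6, another complex I subunit, is the only messenger RNA listed on the minus strand. It stood at 1647, 1539, 1889 and 1764 CPM in fasted and 2131, 2320, 1807 and 2282 CPM in refed control livers (0.32, SE 0.11, edgeR adjusted p = 0.0687), and its groups overlapped through S50. Reads counted to mt-Nd6 cannot be told apart here from those of plus-strand RNA that runs on from mt-Nd5, so the 2 values may not be separate results. mt-Cytb, the last messenger RNA on the genome, ranged from 10838 to 12163 CPM in fasted and from 11580 to 14316 CPM in refed control livers (0.18, SE 0.13, edgeR adjusted p = 0.384). Relative to mt-Nd2, upstream on the genome, mt-Nd5 counts were 0.307 ± 0.0325 in fasted and 0.473 ± 0.0493 in refed control livers. The same ratio was 0.323 ± 0.0845 in fasted LKO and 0.396 ± 0.0545 in refed LKO livers. The authors' deposited table for control refeeding had 7 mitochondrial genes with an adjusted p under 0.05, with mt-Nd5 and mt-Nd6 higher in refed and mt-Rnr1, mt-Rnr2, mt-Tg, mt-Tl2 and mt-Nd4l lower. In the edgeR fit mt-Nd4l was at −1.53 (SE 0.50, adjusted p = 0.0507), and with its copy's counts added at −0.39 (SE 0.52, adjusted p = 0.651). CPM did not overlap for 7 of the 29 genes here, 1 higher and 6 lower, against 20.4% of all genes tested (10.4% higher and 10.1% lower).

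In LKO livers the counted RNA of both ribosomal RNA genes also fell with refeeding. mt-Rnr1 went from 398, 346, 367 and 370 CPM to 271, 245, 285 and 323 CPM (log2 fold change −0.40, SE 0.11, edgeR adjusted p = 0.0157), with no overlap. Without S53 its adjusted p was 0.0530. mt-Rnr2 went from 530, 389, 426 and 524 CPM to 303, 243, 330 and 379 CPM (−0.57, SE 0.18, edgeR adjusted p = 0.0395), also with no overlap. Without S44, S47, S52, S53 or S54 the mt-Rnr2 call was lost, with an adjusted p up to 0.117.

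mt-Co3 and mt-Tp were higher in refed than in fasted LKO livers. mt-Co3 rose from 185, 137, 186 and 121 CPM to 549, 555, 316 and 255 CPM, with every refed library above every fasted one (1.41, SE 0.42, edgeR adjusted p = 0.0264). With its copy's counts added, mt-Co3 did not pass (0.60, SE 0.23, edgeR adjusted p = 0.0787), and the call was also lost without S45, S47, S52 or S53. mt-Tp, which held 53.9 ± 5.45% of transfer RNA counts over the 16 libraries, went from 65.5, 65.7, 82.4 and 68.5 CPM to 80.0, 104, 85.2 and 98.1 CPM (0.38, SE 0.12, edgeR adjusted p = 0.0344). Its ranges overlapped through S46, and the call was lost without S44, S45, S47, S53 or S55. In all 4 of 29 genes were called, 2 in each direction, against 18.1% of all genes tested (9.28% higher and 8.78% lower). Without S47 or S53 the count was 1, and without S44, S45 or S52 it was 2. The groups did not overlap for 5 genes, 2 higher and 3 lower, against 20.6% of all genes tested (10.6% higher and 9.95% lower). The median log2 fold change was 0.11 over the mitochondrial genes and −0.02 over all genes. The control and LKO refeeding comparisons share no libraries, but each shares libraries with both genotype comparisons.

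**Figure D5:**
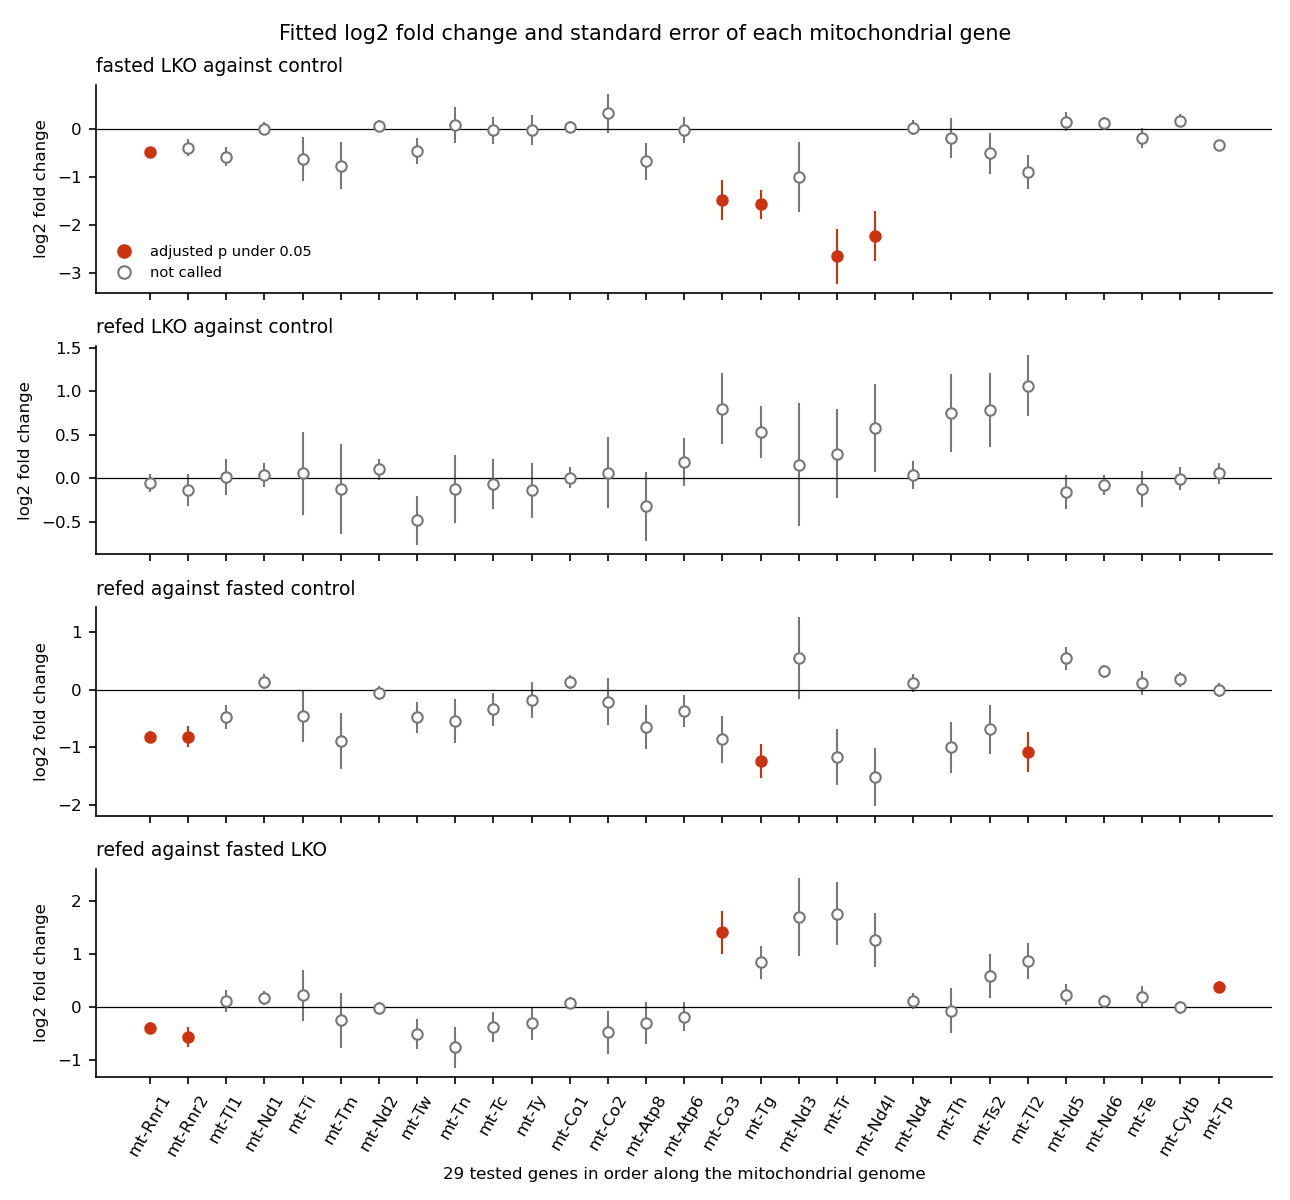
Log2 fold change (vertical axes, bars are standard errors) of 29 tested mitochondrial genes in order along the genome (horizontal axis), 1 panel per comparison. Filled red points have an edgeR adjusted p under 0.05. The called genes of the fasted genotype comparison are mt-Rnr1, mt-Co3, mt-Tg, mt-Tr and mt-Nd4l, and both ribosomal RNAs are called in each refeeding comparison.

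The test of whether the LKO effect differed between fasted and refed livers called 1 mitochondrial gene, mt-Tg, against 0.538% of all genes tested (0.311% with a higher effect and 0.228% with a lower effect after refeeding). mt-Tg was lower in fasted LKO than in fasted control livers, and stood at 1.59, 1.37, 1.42 and 1.34 CPM in refed LKO against 0.639 to 1.22 CPM in refed control livers. The difference of the effects was 2.09 on the log2 scale (SE 0.42, edgeR adjusted p = 0.0426), and 12 of the 16 fits without 1 library lost the call, with an adjusted p up to 0.0843. The call was kept without S45, S46, S49 or S51, and the count of mitochondrial calls was 3 without S49 and 2 without S51. mt-Tl2 (1.95, SE 0.49), mt-Co3 (2.28, SE 0.58), mt-Nd4l (2.79, SE 0.72) and mt-Tr (2.93, SE 0.77) had edgeR adjusted p of 0.0705, 0.0713, 0.0723 and 0.0753. With their copies' counts added, mt-Co3 was at 0.94 (SE 0.32, edgeR adjusted p = 0.156) and mt-Nd4l at 1.36 (SE 0.74, edgeR adjusted p = 0.378). For mt-Rnr1 the difference was 0.42 (SE 0.15, edgeR adjusted p = 0.169), so its LKO effect was not shown to differ between the states. Lars2, the nuclear gene for the enzyme that charges mitochondrial leucine transfer RNAs, stood at 62.0 to 91.3 CPM in fasted control and 124 to 196 CPM in fasted LKO livers. It stood at 115 to 181 CPM in refed control and 81.8 to 110 CPM in refed LKO livers, and its LKO effect differed between the states by −1.71 (SE 0.26, edgeR adjusted p = 0.0168).

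Transfer RNA genes were thinly covered. The minus-strand genes held 91.2 ± 2.24% of transfer RNA counts. Most came from mt-Tp and from mt-Te, the glutamate transfer RNA, which ranged from 23.1 to 49.6 CPM. mt-Tc (cysteine), mt-Ty (tyrosine) and mt-Tn (asparagine), neighbours on the minus strand, ranged from 6.11 to 20.02, from 3.98 to 11.3 and from 1.17 to 6.78 CPM. Of these 5 genes only mt-Tp was called, in refed against fasted LKO livers. mt-Tv, mt-Tq, mt-Ta, mt-Ts1, mt-Tk and mt-Tt did not pass the low-count filter, with at most 19 counts in a library. mt-Tk had 1 and 2 counts in the fasted control libraries S40 and S41 and 0 elsewhere. A count of 0 allows up to 3 counts, or 0.122 to 0.204 CPM at these depths. Reads of a minus-strand transfer RNA cannot be told apart here from those of a precursor of the opposite strand.

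Nuclear genes that serve the mitochondrial genome were read from lists chosen with earlier results known. Among nuclear subunits of the complexes that also hold mitochondrial ones, calls in fasted LKO livers were all in the lower direction: 2 of 10 complex I, 3 of 9 complex III, 1 of 10 complex IV and 2 of 11 complex V genes were called lower and 0 higher, against 6.48% lower and 5.75% higher among all genes tested. Their median log2 fold changes were −0.16, −0.14, −0.20 and −0.17. Among them were Ndufs8 of complex I (−0.39, SE 0.10, edgeR adjusted p = 0.0184) and Cox5a of complex IV (−0.40, SE 0.08, edgeR adjusted p = 0.00367). Of 4 complex II genes, which have no mitochondrial partner gene, Sdhb was called lower (−0.43, SE 0.11, edgeR adjusted p = 0.0209). In control refeeding 2, 2, 4 and 1 of the same lists for complexes I, III, IV and V were called lower and 0 higher, against 7.65% lower and 7.79% higher among all genes tested. In LKO refeeding 0 were called in either direction by edgeR, against 18.1% of all genes tested. Unadjusted p under 0.05 were reached there by 1, 1, 0 and 0 genes of these 4 lists.

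Genes for handling mitochondrial RNA were counted in the same way. Of 15 genes for RNA stability and turnover, 4 were called higher and 1 lower in refed control livers, and 6 higher and 0 lower in refed LKO livers. The shares over all genes were 7.79% higher with 7.65% lower for controls, and 9.28% higher with 8.78% lower for LKO livers. Of the same 15, only Rexo2, a mitochondrial oligoribonuclease, was called between the refed genotypes, higher in LKO (0.38, SE 0.09), against 2.28% called higher among all genes tested. Pde12, which removes poly(A) tails in mitochondria, rose by 0.61 (SE 0.13, edgeR adjusted p = 0.00691) and 0.90 (SE 0.13, edgeR adjusted p = 0.000313) in these comparisons. Pnpt1, the RNA-degrading polynucleotide phosphorylase, rose by 0.49 (SE 0.09) and 0.47 (SE 0.09). Of 17 genes for RNA cutting and modification, 2 were called higher and 1 lower in refed control livers, against 15.4% in either direction among all genes tested. In refed LKO livers 4 were called higher and 0 lower, against 18.1% in either direction. Trmt10c, a subunit of mitochondrial RNase P, rose by 0.38 (SE 0.10) in control livers, and Elac2, which trims the other end of transfer RNAs, rose by 0.22 (SE 0.07) in LKO livers. In fasted LKO against control livers edgeR called 0 of the 17, against 12.2% of all genes, with 4 at an unadjusted p under 0.05, and of the stability list Grsf1 alone was called higher (0.31, SE 0.10, edgeR adjusted p = 0.0471).

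Genes for transcription and copying of the mitochondrial genome were read the same way. Of 10 transcription genes, which include the polymerase gene Polrmt and its partners Tfam and Tfb2m, only Mterf4 was called, higher in fasted LKO (0.45, SE 0.13) and lower in refed LKO against fasted LKO livers (−0.59, SE 0.13), against 12.2 and 18.1% of all genes tested called in these comparisons. Of 12 replication genes, LKO refeeding gave 2 calls in each direction, against 18.1% of all genes tested in either direction. In control refeeding 1 was called higher and 1 lower, against 15.4%, and 1 was called higher between the refed genotypes, against 3.63%. Mgme1, a nuclease of mitochondrial DNA, was higher in refed LKO against refed control livers (0.42, SE 0.10), and rose with refeeding by 0.36 (SE 0.11) in control and by 0.70 (SE 0.10) in LKO livers. Tk2, the mitochondrial thymidine kinase, was lower after refeeding in control (−0.32, SE 0.09) and in LKO livers (−0.53, SE 0.09). The other calls in LKO refeeding were Primpol, a primase-polymerase (0.66, SE 0.19), and Polg, the mitochondrial DNA polymerase (−0.45, SE 0.12). Of 8 regulators of mitochondrial biogenesis, Esrra was called lower (−0.27, SE 0.08) and Gabpb1 higher (0.62, SE 0.14) in fasted LKO livers, against 12.2% of all genes tested in either direction. In control refeeding Esrra was called lower (−0.25, SE 0.08), against 15.4%. In LKO refeeding Pprc1 was called higher (0.70, SE 0.16) and Ppargc1b lower (−0.96, SE 0.28), against 18.1%.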

How the data were processed

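For 16 libraries, liver RNA of male mice was selected on poly-T beads and made into libraries with random hexamers and dUTP, per the labels' protocols. HISAT2 2.0.5 and build mm39 are named in the submitters' processing notes. The counting tool, its strand setting, its rule for reads that match several places and the annotation release are not given in the sources used here. The authors deposited 4 tables, each of 2 groups, with raw read counts per gene, log2 fold changes, p-values and adjusted p-values. Levels per kb use the deposited gene lengths. The 64 columns of other per-library values were not used. The tables were joined on gene, a gene missing from a table being set to 0 there (1 mitochondrial gene, mt-Tk), and counts of libraries present in 2 tables differed in 0 genes. Library headings carry the group but no replicate number. Nothing in the labels states that libraries of a group came from separate animals, so p-values measure the spread between these libraries.

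Counts were tested with edgeR 4.0.16 (R 4.3.3): filterByExpr left 14488 genes, TMM factors ran from 0.941 to 1.07, and 1 quasi-likelihood model of 4 groups gave 5 contrasts with Benjamini-Hochberg adjustment over all genes tested, called under 0.05. CPM are scaled by TMM. The script was tested on simulated data. Shares of library counts are described without a test. For Cpt1a, permuting the 4 and 4 libraries exactly (two-sided) gave p = 0.0286 in each state, the smallest this design allows. DESeq2 1.42.0, limma-voom (limma 3.58.1), other scalings, filters and thresholds, fits of only the groups compared and fits without each library were alternatives. Adding the counts of nuclear copies was chosen after seeing the data. Genes were matched to GENCODE M21 transcripts. Any gene of the mitochondrial genome, Cpt1a, the nuclear copies and, from lists of pathway or cell type genes, members called in any comparison could be named. The members and lists were chosen with earlier results of these data known. The lists of T and NK cell (0 of 5 called in any comparison), neutrophil, macrophage, endothelial, stellate, cholangiocyte and red blood cell markers gave at most 1 call per comparison. Between the refed genotypes, 7 of 9 macrophage markers were lower in LKO (median log2 fold change −0.57), with 6 at an unadjusted edgeR p under 0.05. The 1 macrophage call there was higher, against 2.28% called higher among all genes tested. All 5 tested T and NK cell markers were higher there (median 1.06), with 3 at an unadjusted edgeR p under 0.05. Of 12 RNAs made without a poly-A tail 1 is in the tables and 0 were tested, so that check is void.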

Additional observations from a re-analysis of the deposited data

Results flagged for a closer look

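Single libraries stood apart from the other 3 of their group for several genes: the gap to the nearest library as a part of the group's range was above Dixon's 95% critical value in 8 of 128 group values examined, and chance gives about 1 in 20. The fasted LKO library S44 was low for mt-Cytb (9074 CPM, others 13824 to 14755), for mt-Nd4 (4040 CPM, others 7428 to 7688) and for mt-Nd4l (3.69 CPM, others 9.79 to 10.3). mt-Nd3 was high in 1 library of each refed group, at 127 CPM in the control library S51 (others 14.3 to 17.8) and at 141 CPM in the LKO library S52 (others 17.2 to 18.5). mt-Co2 was high in the refed control library S49 (486 CPM, others 208 to 240). In fasted control livers mt-Tm, the methionine transfer RNA, was high in S40 (1.29 CPM, others 0.865 to 0.885), and the transfer RNA share was high in S42 (0.0197% of counts, others 0.0150 to 0.0157%). The difference of the LKO effect between refed and fasted livers passed its test for mt-Tg (2.09 on the log2 scale).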

How the results depend on the processing

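The 36 results had 544 recomputed values. Of these, 273 were log2 fold changes of named genes, and 0 of them changed sign. The others were counts of calls, which have no sign, and share differences. The 15 share differences stayed within 1 SD of the replicates, pooled over the 4 groups, in all 174 recomputations. For values without 1 library this could not come out otherwise. Leaving out 1 of 4 libraries cannot move a group mean by more than this SD. The protein-gene difference between the fasted genotypes ran from 0.310 to 1.04 points over these values. Differences near 0 changed sign (protein genes in LKO refeeding −0.0776 points without S44, ribosomal RNA genes in the refed genotype comparison 0.00378 without S50 and 0.00254 without S53, transfer RNA genes in control refeeding up to 0.000468 without S42, S48 or S49). The named genes kept their call in 230 of 273. With DESeq2 the count of mitochondrial calls was 1 for the refed genotype comparison, 7 for control refeeding and 3 for the difference of the LKO effect. These 3 were mt-Co3, mt-Nd4l and mt-Tl2, and DESeq2's filter at 0.05 left mt-Tg without an adjusted p. At an adjusted p under 0.01 it was 3 for the fasted genotype comparison, 0 for LKO refeeding and 0 for the difference. With a mean of at least 5 CPM required it was 3 for the fasted genotype comparison and 0 for the difference. Fits without 1 library gave 4 to 5, 0 to 0, 3 to 6, 1 to 5 and 0 to 3 calls for the fasted genotype, refed genotype, control refeeding, LKO refeeding and difference comparisons. The cause of these changes was not tested. mt-Tl2 in control refeeding also missed the threshold with no filter (adjusted p = 0.0511) and when only the groups compared were fitted (0.0935). No paired analysis was possible because the library headings carry no replicate number. Counting depth limits the transfer RNA genes most, since several have under 30 counts in a library.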
